A study of Mus musculus with 2 samples.

Results

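The 30 miRNA probes described here belong to miRNAs whose sequences are mostly rich in G and C and which are known to give bright spots on many arrays. They were taken by name from 1900 miRNA probes on each of 2 single-colour arrays. The arrays carried Cy5-labelled total RNA of epididymal adipose tissue, the fat pad beside the epididymis, from male C57BL/6J mice whose feeding began at 8 weeks of age and lasted 8 weeks. The high-fat group received a diet in which fat supplied 60% of the calories and gave 1 array, and the normal-diet group received a diet with 5% fat and gave 1 array. The labels do not state the number of animals behind an array. A single array per diet leaves every difference below without replicates, so no p-value or error across animals could be given. Probe names carry the prefix mmu-, which is left out below except with the sequences.

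miRNAs are short RNAs cut from hairpin precursors, and they repress messenger RNAs chiefly through bases 2 to 8 of the mature strand, the seed. On an array, a G- and C-rich strand binds its probe tightly and also binds partly matching RNAs more readily than an A- and U-rich one, so such probes are known for signal that other RNA methods do not always bear out. Some of these names have been questioned as miRNAs. Others have a described function: miR-709 acts in the nucleus of mouse cells on the precursor of miR-15a and miR-16, miR-2861 and miR-3960 promote bone cell differentiation in mice, and miR-690 has been described in vesicles of mouse macrophages that improve the insulin response of obese mice.

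RefSeq's mature sequences (build GRCm38.p6) covered 23 of the 30 members and 1614 of the 1900 probes. The following are shown because they belong to the brightest members, to the members with large differences between diets, or to both ends of the range of base composition. The seed is in capitals.
mmu-miR-5126: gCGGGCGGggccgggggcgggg
mmu-miR-2861: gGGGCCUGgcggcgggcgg
mmu-miR-6538: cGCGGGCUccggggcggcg
mmu-miR-2137: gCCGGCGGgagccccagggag
mmu-miR-149-3p: gAGGGAGGgacgggggcggugc
mmu-miR-6366: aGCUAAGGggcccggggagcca
mmu-miR-8110: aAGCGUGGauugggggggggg
mmu-miR-671-5p: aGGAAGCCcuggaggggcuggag
mmu-miR-5100: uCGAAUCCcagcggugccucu
mmu-miR-690: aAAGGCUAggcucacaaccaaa
mmu-miR-1187: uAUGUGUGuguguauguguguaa

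The label of GC-rich held for most members but not for all. The 23 members with a sequence had a median of 69.6% G and C (range 34.8% to 100%), against 52.2% over the 1591 other probes with a sequence. At least 60% G and C was found in 18 of the 23 members, against 402 of the 1591 others (25.3%). The members were rich in G rather than in C: their median G content was 54.2% and their median C content 17.4%, against 26.1% and 22.7% in the other probes. A run of at least 4 G (GGGG, searched on the mature strand alone) stood in 15 members (65.2%) and in 167 other probes (10.5%). In miR-8110 this run was 10 bases long. The sequence of miR-5126 was 100% G and C, with no A or U, and those of miR-2861 and miR-6538 were 94.7%. Below 50% were 3 members, namely miR-690 and miR-5129-5p at 45.5% and miR-1187, a repeat of U and G, at 34.8%. miR-5100, whose spot held the most net signal among the members, was at 61.9% G and C but at only 23.8% G.

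The miRNA genes of the 23 members were scattered over the genome, and 18 of them lay within the span of a protein-coding gene in the RefSeq annotation, whose table gives neither strand nor exons. miR-5126 (chr1:84695890-84695911, plus strand) lay within Dner, miR-2137 (chrX:72992113-72992133, plus strand) within Zfp185, miR-690 (chr16:28599940-28599961, minus strand) within Fgf12 and miR-5100 (chr11:60728698-60728718, plus strand) within Mief2. miR-149-3p (chr1:92850421-92850442, plus strand) lay within Gpc1, and miR-671-5p (chr5:24592132-24592154, plus strand) within Chpf2. No gene other than its own miRNA gene spanned miR-6366 (chr16:18165093-18165114, minus strand) or miR-2861 (chr2:32712819-32712837, minus strand). The hairpin of miR-2861 lay 11 bases from that of miR-3960 on chromosome 2, and these were the only members that neighboured each other so closely. No seed was shared between any of the 23 members.

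All 30 members were detected on both arrays, that is, their spots exceeded the blank mean by more than 2 SD of the blanks. Of all 1900 miRNA probes, 1510 were detected on the high-fat array and 1370 on the normal-diet array, and 1339 on both. Net signal below is the median of a spot minus the mean of the blank spots on that array, which was 69.24 on the high-fat array and 75.65 on the normal-diet array. The members had a median net signal of 232.3 on the high-fat array and 169.2 on the normal-diet array, against 10.4 and 6.62 for the other probes. The dimmest member, miR-1896, was at 10.5 and 9.53. The 32 negative control spots had a median net signal of 2.29 on the high-fat array and 4.33 on the normal-diet array. Above the detection limit were 16 of them on the high-fat array and 19 on the normal-diet array, and the brightest had 8.72 and 10.3, so miR-1896 on the normal-diet array lay within their range. Their sequences are not given in the sources used here, so how much signal a G-rich strand gives without its target was not measured on these arrays.

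The members held a large part of the signal on each array. Their share of the summed net signal of all miRNA probes was 31.9% on the high-fat array and 30.6% on the normal-diet array. The shares differed by 1.25 percentage points, and no error of such a sum can be had from 1 array per diet. With the local background of each spot subtracted instead, the order turned, with 32.3% on the high-fat array and 35.3% on the normal-diet array. Most of the share came from miR-5100 and miR-6366, which held 23.4% of the net signal on the high-fat array and 24.8% on the normal-diet array. Of the 100 brightest miRNA probes, 14 were members on each array, and of the 10 brightest, 5 were members on the high-fat array and 3 on the normal-diet array. How bright a probe is depends on its own binding as well as on its target, so these ranks are not an order of abundance.

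The sum of the other 28 members differed more between the diets than the total does. They held 8.48% of the net signal on the high-fat array and 5.81% on the normal-diet array, with summed net signals of 24470 and 17217, a ratio of 1.42. Over the 1870 probes outside the set the sums were 196560 and 205630, a ratio of 0.956, and miR-5100 and miR-6366 together had a ratio of 0.918. The total of the members thus combines net signals with ratios above and below 1, before any scaling. The separation of the brightest pair was chosen after the values had been seen.

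**Figure D1:**
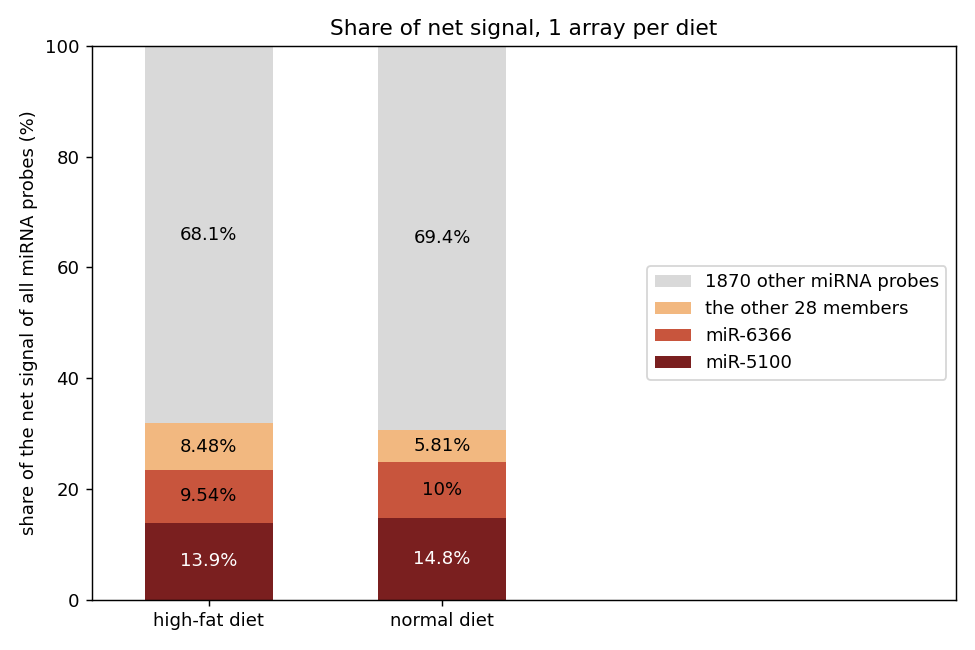
Share of the net signal of all miRNA probes (%, vertical axis) on the high-fat array and the normal-diet array, stacked by miR-5100, miR-6366, the other 28 members and the 1870 other miRNA probes. There is 1 array per diet and no error bar. The middle block of 28 members is taller on the high-fat array, at 8.48% against 5.81%.

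The brightest members stood level between the diets. miR-5100 had a net signal of 40011 on the high-fat array and 43935 on the normal-diet array, and it held 13.9% and 14.8% of the total. It ranked 2nd and 1st among all probes. After background correction and quantile scaling, which makes the distribution of all miRNA probes equal on both arrays, its log2 difference (high-fat minus normal diet) was -0.07. miR-6366 had 27539 on the high-fat array and 29676 on the normal-diet array and held 9.54% and 10.01% of the total. It was the 3rd brightest probe on both arrays, so quantile scaling gave it the same value on both and a log2 difference of 0. This scaling sets the closeness of the top ranks by its construction: without it the log2 differences were -0.13 for miR-5100 and -0.11 for miR-6366, with cyclic loess 0.39 and 0.37, and in the authors' deposited values -0.39 and -0.36. The direction of neither is settled. The brightest probes outside the set stood beside them: miR-3968 with 43333 and 43121, miR-6412 with 11922 and 11905 and miR-3963 with 10628 and 13643 on the high-fat and the normal-diet array.

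The next members in brightness were higher on the high-fat array. miR-690, the macrophage vesicle miRNA, had a net signal of 4704 on the high-fat array and 3408 on the normal-diet array, or 1.63% and 1.15% of the total, with a log2 difference of 0.34. miR-2137 had 4708 and 2887, or 1.63% and 0.974% of the total, with a difference of 0.93. It was the 6th brightest probe on the high-fat array and the 12th on the normal-diet array. miR-5126, the sequence of G and C alone, had 3876 and 2771, or 1.34% and 0.935%, with a difference of 0.57. These 3 and the brightest pair were the 5 members that held at least 1% of the net signal on either array. For comparison, the log2 difference of single control spots had an SD of 0.12 to 0.19 over 8 spots of each of 5 controls. This spread of repeated spots is the only error the arrays give. The mean log2 differences of the controls' net signals, before any scaling, ran from -0.47 to -0.27. That shift, and its spread between controls, is not part of the SD.

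miR-709 was the only member that passed 2-fold. Its net signal was 1402 on the high-fat array and 684.3 on the normal-diet array, and its log2 difference was 1.18. It moved to rank 24 on the high-fat array, against rank 63 on the normal-diet array. Of the 1339 miRNAs detected on both arrays, 17 (1.27%) passed 2-fold upward on the high-fat array and 10 (0.747%) downward. Many of these 1339 are dim, where the offset compresses differences. Among the 245 other miRNAs in the brightest of 5 equal signal classes, where 23 members lay, 12 passed 2-fold upward and 10 downward. The 1 of 30 members past it upward and 0 downward does not stand apart from either background. miR-709 fell short of 2-fold with 75th percentile scaling (0.86), with median scaling (0.91), without scaling (0.98), with the local background (0.29) and in the values the authors deposited (0.78).

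The neighbouring miRNA genes both differed toward the high-fat array, though by sizes that varied with the processing. miR-2861 had a net signal of 2137 on the high-fat array and 1342 on the normal-diet array, with a log2 difference of 0.91. miR-3960 had 1890 and 1462, with a difference of 0.70. Both were higher under every processing tried, although the range was wide: 0.29 to 1.03 for miR-2861 and 0.11 to 1.73 for miR-3960. Within a setting the values of miR-2861 and miR-3960 were 0.29 and 1.73 with the local background. They were 0.65 and 0.36 without scaling, and 0.41 and 0.11 in the authors' deposited values. The highest value of miR-3960 came with the local background, which stood above the blank mean by 0.314 of its net signal on the high-fat array and 0.776 on the normal-diet array.

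Small differences toward the high-fat array were seen in further members of varied brightness. Other members of like brightness, such as miR-5112 and miR-711, stood at or near 0 and are given below. miR-149-3p, the opposite strand of miR-149 and in mouse fat reported to act on the thermogenic regulator Prdm16, had 888.5 on the high-fat array and 664.9 on the normal-diet array, with a log2 difference of 0.53. miR-1224-5p, which is spliced out of Vwa5b2 as a short intron, had 214.4 and 127.6 (0.46). miR-328-5p had 539.2 and 387 (0.38), and miR-5107-5p had 141.5 and 81.7 (0.35). miR-5130 (0.33), miR-1894-3p (0.27), miR-1892 (0.26), miR-705 (0.25), miR-6538 (0.23), miR-762 (0.22) and miR-1895 (0.19) followed. Of these, miR-1895, at 97.8 on the high-fat array and 64.4 on the normal-diet array, lay just below the largest SD of the control spots. Its log2 ratio of net signals, without the offset, was 0.60. In all, 16 of the 30 members had a difference larger than the largest SD of the control spots, and all 16 were higher on the high-fat array. Of all 1339 miRNAs detected on both arrays, 142 (10.6%) were higher by more than that SD and 178 (13.3%) lower. Many of these 1339 are dim, and 23 of the 30 members lay in the brightest of 5 equal signal classes. These shares are therefore not matched for brightness.

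The remaining members had normalised differences below the largest SD of the control spots (0.191), which carries no offset. As log2 ratios of net signals, miR-5129-5p (0.68), miR-6368 (0.42), miR-671-5p (0.33), miR-8110 (0.26), miR-711 (0.23) and miR-1187 (0.194) exceeded that SD. The others named here did not. miR-671-5p, which directs the cleavage of the circular RNA Cdr1as, had 145.7 on the high-fat array and 115.5 on the normal-diet array (0.11), and miR-8110 had 250.3 and 208.8 (0.10). miR-5129-5p (0.06), miR-711 (0.06) and miR-6368 (0.01) were also near 0. miR-5112 had 707 and 711, the same rank on both arrays, and so a difference of 0. Below 0 were miR-714 (-0.13), miR-712-5p (-0.12), miR-5128 (-0.11), miR-1187 (-0.07) and miR-1896 (-0.07), beside miR-5100. miR-712-5p comes from the precursor of ribosomal RNA and responds to blood flow in mouse endothelium. It had a net signal of 56.9 on the high-fat array and 53 on the normal-diet array. Without scaling its log2 difference was 0.04.

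**Figure D2:**
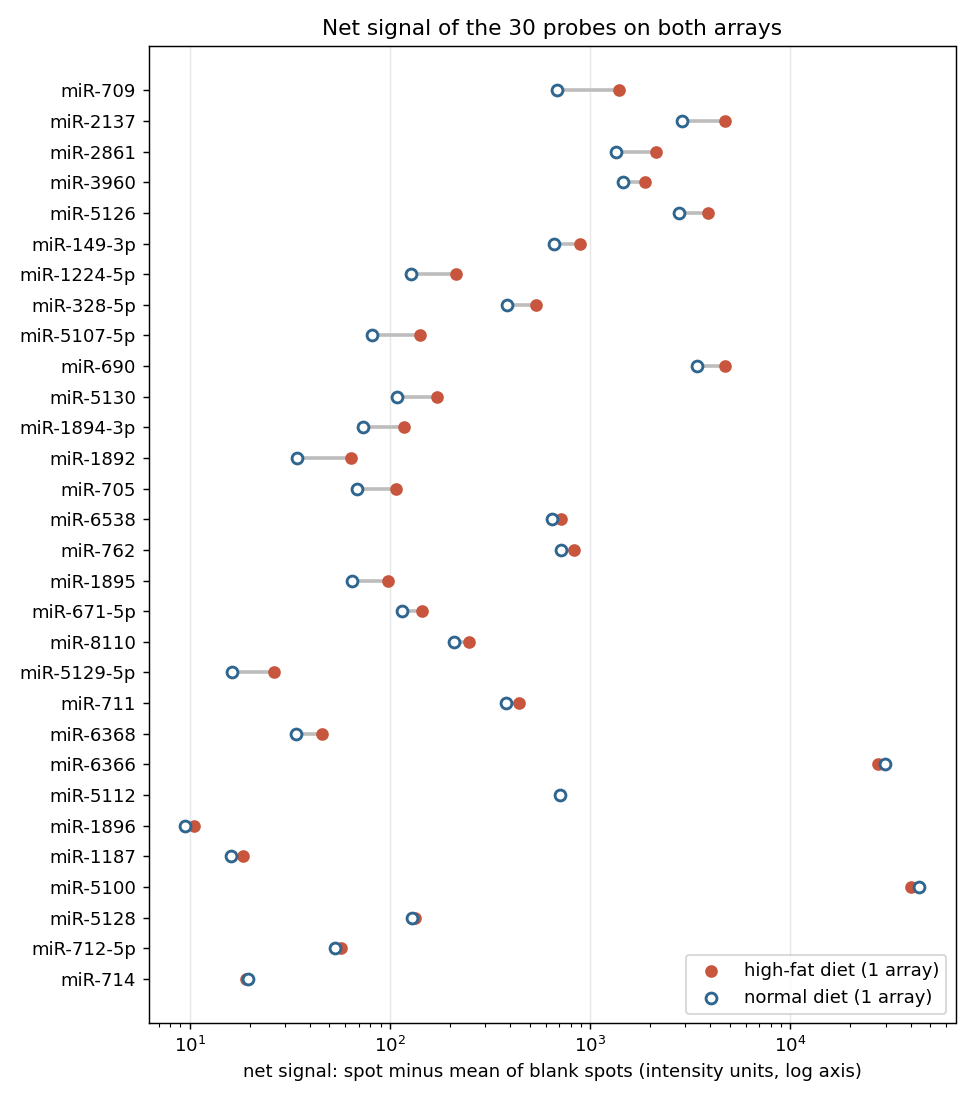
Net signal (spot median minus the mean of the blank spots, intensity units, log axis) of each of the 30 members, with the high-fat array as filled points and the normal-diet array as open points, 1 array per diet, ordered by the normalised log2 difference from the highest at the top. The points of miR-709 lie farthest apart, at 1402 and 684.3, and those of miR-5112 coincide at 707 and 711.

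Counted over the set, 22 members were higher on the high-fat array, 6 were lower and 2 were at 0. Among all 1339 miRNAs detected on both arrays 471 (35.2%) were higher. Signs near 0 depend on the scaling. Without scaling 25 members were higher and 5 lower, and 826 (61.7%) of the 1339 were higher. The members' median log2 difference was 0.22, against -0.04 over the 1309 other miRNAs detected on both arrays. The sets also differ in signal: with the 1339 miRNAs in 5 equal classes of mean signal, 23 of the 30 members lay in the brightest class. In that class the 23 members had a median of 0.27 with 19 higher, and the 245 others had a median of -0.11 with 98 higher (40%). The members and their list were chosen with earlier results of these arrays known, so these counts are descriptions.

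The distance between the medians of the set and the other probes depended on the background. Several of the scalings could not change it. The members' median lay above that of the other probes under each of the 10 other backgrounds, offsets, scalings and sources of values. These are not 10 separate checks. Relative to no scaling, percentile, median and spike-control scaling shift all log2 values of an array by a constant. The distance between the medians is therefore the same in these settings by construction. Scaling to the spike controls moved the median of all other probes to 0.35 and that of the members to 0.61, with 30 of 30 members higher but also 94.1% of the other probes. Cyclic loess gave 25 members higher and a median of 0.30, and the authors' deposited values 19 higher and a median of 0.16. With the local background, a column that follows the light of the spot itself, 16 members were higher and 14 lower. Of the other probes, 46.5% were higher with it. The members' median was then 0.08, and 11 members had the other sign or left 0. For net signals above 100 the local background stood above the blank mean by a median of 0.591 of the net signal over 22 members on the high-fat array and 0.647 over 19 members on the normal-diet array. Over all miRNA probes of that brightness it was 0.560 and 0.558, so bright spots in general have it. miR-5126 (-0.41), miR-711 (-0.58) and miR-2137 (-0.08) were lower with it, and miR-149-3p (1.69), miR-3960 (1.73) and miR-690 (1.05) were then past 2-fold. Of all 1339 miRNAs detected on both arrays, 24 were then past 2-fold upward and 18 downward. Higher under every processing were 13 members: miR-705, miR-3960, miR-709, miR-1224-5p, miR-2861, miR-8110, miR-5130, miR-149-3p, miR-690, miR-5107-5p, miR-1894-3p, miR-1892 and miR-1895.

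**Figure D3:**
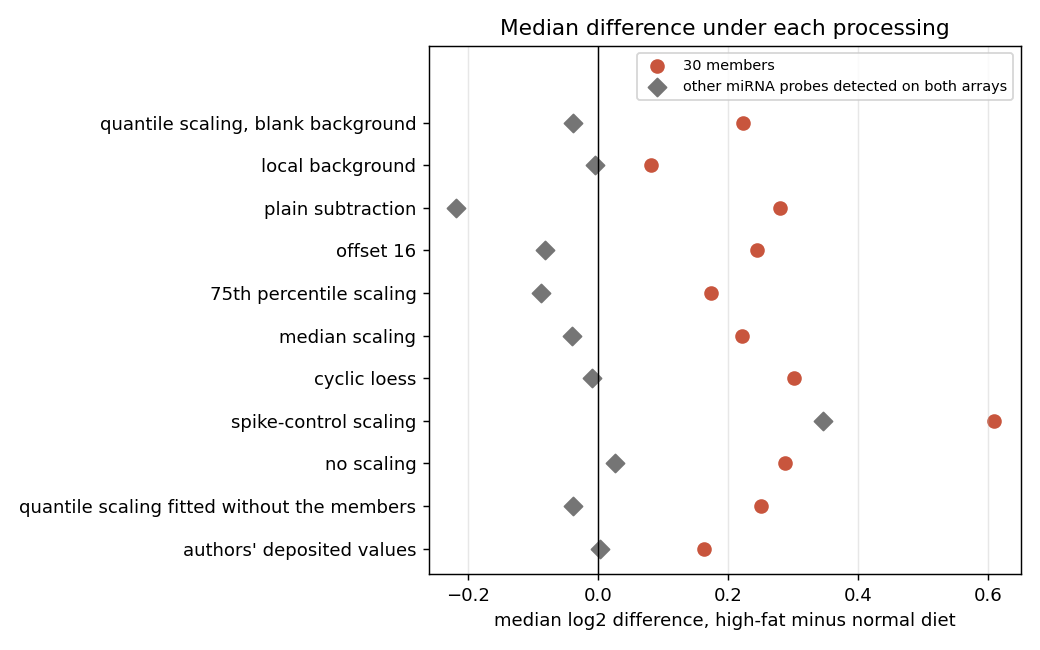
Median log2 difference (high-fat minus normal diet, horizontal axis) of the 30 members (circles) and of the 1309 other miRNA probes detected on both arrays (diamonds) under each background correction, offset, scaling or source of values. The circle lies right of the diamond in every line, by least with the local background, where the medians are 0.08 and -0.01. The lines of no scaling and of percentile, median and spike-control scaling have the same distance by construction.

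Normalised differences varied with G and C content, though not in step with it. In the class of at least 70% G and C there were 11 members, of which 10 were higher on the high-fat array and miR-6366 was at 0, with a median of 0.25. In the class of 60% to 70% there were 7, of which 5 were higher, with a median of 0.06. The 2 members of 50% to 60% had a median of 0.09, the 2 of 40% to 50% a median of 0.20, and miR-1187, the only one of 30% to 40%, was at -0.07. miR-709, which had the largest difference, has no sequence here and is in none of these classes. Across the 23 members with a sequence, Pearson's r between G and C content and the log2 difference was 0.62, and across the 1115 other miRNAs it was 0.13. The offset compresses differences of dim members, and G and C content also went with the members' signal (r 0.36 high-fat, 0.30 normal diet). As log2 ratios of net signals, miR-1892 was at 0.89 and miR-5129-5p at 0.68. The GC-rich miR-2137 was at 0.71, miR-762 at 0.23 and miR-6538 at 0.16. The part of brightness in the r of 0.62 was not tested. These are correlations across probes of the same arrays, which share hybridisation and depth of signal and are not independent.

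The other probes of like composition compared differently by median and by sum, and the difference between the sets was not tested. Outside the set, 75 probes had at least the members' median of 69.6% G and C, and 69 of them were detected on both arrays. Their median log2 difference was -0.04, with 30 higher and 39 lower, against 0.24 with 11 higher and 0 lower for the 12 members in that range. Many of these probes were dim. The 32 that reached the signal of the dimmest such member had a median of 0.07 with 18 higher, and their summed net signal was 12038 on the high-fat array and 9000 on the normal-diet array, a ratio of 1.34. The 12 members had sums of 41475 and 39266, a ratio of 1.06, of which miR-6366 alone gave 27539 and 29676. The 15 members with a run of at least 4 G, miR-6366 among them, had a ratio of sums of 1.01. Probes outside the set with such a run had a ratio of 1.27, and those without one 0.923. By sums that include miR-6366 the members thus stood closer to 1 than the others, and by medians farther from 0. The closeness of these sums to 1 rests on that 1 bright probe. The 28 members without miR-5100 and miR-6366 had a ratio of 1.42.

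**Figure D4:**
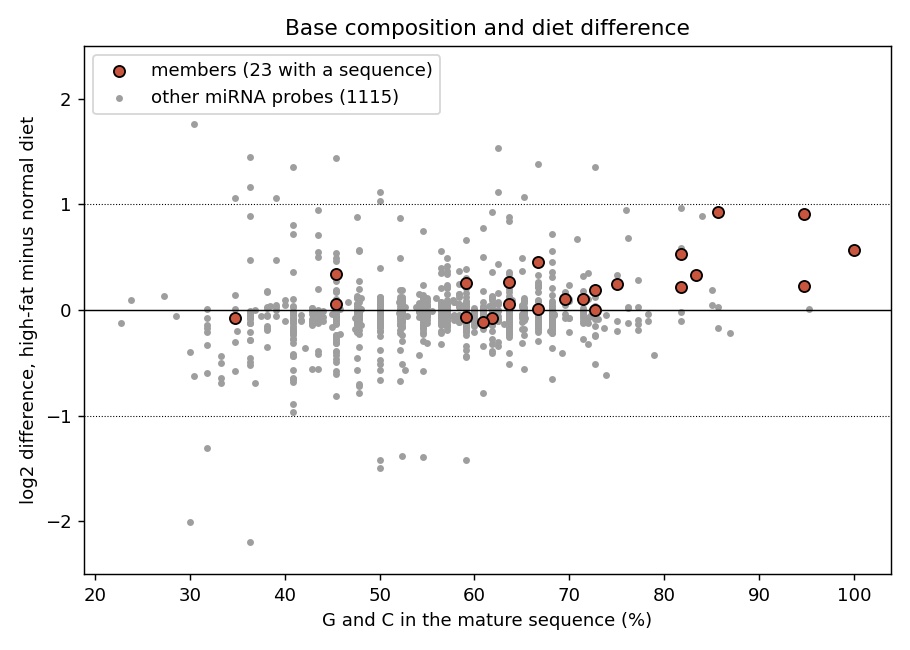
Log2 difference (high-fat minus normal diet, vertical axis) against G and C content of the mature sequence (%, horizontal axis) for 23 members (large points) and 1115 other miRNA probes (small grey points), all detected on both arrays. Dotted lines mark 2-fold. The members above 80% G and C all lie above 0, and the other probes of that composition lie on both sides of it.

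The other strands of the same hairpins gave little signal, and the sign of their differences depended on the scale. After scaling, 7 of 8 such strands with a probe were lower on the high-fat array and 1 was higher. Their median log2 difference was -0.03. As net signals before scaling, all but miR-328-3p were higher on the high-fat array, with sums of 125.7 on that array and 102 on the normal-diet array. miR-149-5p, the main strand of miR-149 in most tissues, had a net signal of 23.4 on the high-fat array and 17.4 on the normal-diet array (-0.01). miR-328-3p, which has been described as a promoter of brown fat cell formation in mice, had 19.6 and 22.4 (-0.18), and miR-1224-3p had 14.8 and 11.9 (-0.03). At these levels near the offset of 50 a difference is compressed, so no lack of change can be read from them. Whether the strands of a hairpin changed unequally could not be read from probes this dim.

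Other measures also moved between the arrays. The adipose and stromal miRNAs fixed for this comparison, 9 in number, were all lower on the high-fat array, with a summed net signal of 6334 against 12186 and a median log2 difference of -0.78. The 5 blood miRNAs were all lower, with sums of 1356 and 6151. With the local background 3 of these 9 (miR-145a-5p, miR-30a-5p and miR-26a-5p) and 1 of these 5 (miR-150-5p) were higher. The 7 miRNAs of epididymis and ciliated epithelium had sums of 2896 and 24.4, and 3 of them were detected on both arrays. The others, miR-34b-5p, miR-449a-5p, miR-741-3p and miR-743a-3p, were detected on the high-fat array alone. All 9 adipose and stromal miRNAs were detected on both arrays. Among them, miR-378a-3p had 98.4 on the high-fat array and 374.5 on the normal-diet array. miR-103-3p had 567.5 and 1074, and miR-143-3p had 1206 and 2336. Fewer cells of a type and less RNA per cell cannot be told apart in such tissue. The part of these shifts in the members' differences was not tested. Per the file headers the arrays were cells 2 (high-fat) and 1 (normal diet), and an effect of the cell cannot be told apart from one of diet.

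The place of the spots was also uneven. Of the 30 members, 25 stood in the rows numbered 2 and 4 of the print blocks. In those rows 15 members had a net signal above 100 on both arrays, with a median log2 difference of 0.33, and 37 other probes of that brightness had a median of -0.03, against -0.12 over 147 in the other rows. Row 1, which holds 1 member, had 72 of these 147, with a median of -0.40 and 15 higher. The part of spot position in the members' differences was not tested.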

How the data were processed

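Per the file headers, a median intensity was recorded for every spot and for its surroundings, and 3 scanner gains were merged. The software that did so is not stated in the labels or headers. The processed intensity values that the authors deposited equalled the net signal (spot minus the mean of 896 blank spots, trimmed by 5% at each end) times 1 factor per array, 1.56 for high-fat and 1.86 for normal diet, and listed exactly the probes above the blank mean plus 2 SD. From the spot intensities, limma 3.58.1 in R 4.3.3 computed normexp values (offset 50) against the blank mean and quantile scaling over 1900 miRNA probes, then log2. The log2 difference is high-fat minus normal diet, and its size rule is 2-fold. These steps and some of the alternatives were run on simulated arrays made from the normal-diet array, with some probes set higher or lower and random noise added. The simulation held no shift between whole arrays, no local background and no effect of spot position, so it does not speak to these. Sequences and loci came from RefSeq (GRCm38.p6). The members, the lists, the blank background and the rule for names (every member once, in full from 1% of the net signal or 2-fold) were chosen with earlier results of these data known. Alternatives were other backgrounds, offsets, scalings, sources of values and sets of members. The sequences of miR-3960, miR-328-5p, miR-5112, miR-709, miR-712-5p, miR-714 and miR-5107-5p were not used here.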

Additional observations from a re-analysis of the deposited data

How the results depend on the processing

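With 1 array per diet, no setting gives a replicate error, and no stability can be read from small moves. The share of net signal was 31.9% (high-fat) and 30.6% (normal diet). It was 22.4% and 21.2% without background subtraction, 20.9% and 18.6% without miR-5100, and 32.3% and 35.3% with the local background, where the order of the diets turned. Without miR-5100 and miR-6366, an alternative chosen after seeing the data, it was 11.1% and 7.73%. The median log2 difference of the members (0.22) was 0.082 with the local background and 0.61 with spike-control scaling, and lay between 0.16 and 0.30 under the others. The count of members past 2-fold (1) was 3 with the local background, 3 with quantile scaling fitted without the members, 2 with spike-control scaling, and 0 with 75th percentile scaling, median scaling, no scaling and the authors' deposited values. The count of members higher (22) ranged over 16 to 30, and the share of the other probes higher over 25.4% to 94.1%. The number of members that changed sign or left 0 was 11 with the local background, 8 with spike-control scaling, 5 without scaling, 5 in the authors' deposited values and 0 by plain subtraction or with an offset of 16. No paired analysis was possible because each diet has 1 array.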

Other observations

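Seeds shared with probes outside the set were looked up after the members' values had been seen. Of the 23 members with a sequence, 5 share their seed with 12 other probes. miR-3547-5p, which has the seed of miR-6368, had a net signal of 1041 on the high-fat array and 601.4 on the normal-diet array, with a log2 difference of 0.94, whereas miR-6368 itself had 45.7 and 34.2 with 0.01. The other probes of that seed, miR-6404 and miR-6405, were at -0.01 and -0.11. The seed of miR-149-3p, whose difference was 0.53, is shared by miR-1943-5p (0.02), miR-6967-5p (0.11) and miR-7016-5p (-0.04), and that of miR-2861 (0.91) by miR-3091-3p (-0.01). The offset compresses differences of dim probes: as a log2 ratio of net signals, miR-3091-3p was at 0.65 and miR-2861 at 0.67, and miR-1943-5p (0.55), miR-6967-5p (0.73) and miR-7016-5p (0.17) stood beside miR-149-3p (0.42). On this scale miR-3547-5p was at 0.79 and miR-6368 at 0.42. Whether probes of a seed differ alike thus depends on the scale and was not tested.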
